A study of Mus musculus with 2 samples.

Results

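The apical polarity genes of the Par and Crumbs complexes were described across the cell types of postnatal day 5 mouse cortex. The set has 10 genes, taken by symbol from the 32285 genes of the table: Crb1, Crb2, Mpp5, Pard3, Pard3b, Pard6a, Pard6b, Pard6g, Prkci and Prkcz. All 10 were found. The measurement is droplet single-cell RNA sequencing on the 10x Genomics platform, in 2 libraries of cortex at day 5: 1 labelled Mut for Katnal2, and 1 labelled WT. Cells were released by trypsin followed by collagenase, passed through a strainer and sorted by flow cytometry. No source used here names the sort gate, the mutated part of Katnal2 or the strain. According to the design text a sample stands for 3 replicates, which the barcodes do not separate. Each genotype is therefore 1 sample, no test between genotypes is possible, and no p-value is given.

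Apical polarity is the division of a cell's surface into a domain that faces a lumen and a domain that faces neighbours and matrix. Par3 is a scaffold at the apical junction, and Par6 with atypical protein kinase C (aPKC) forms the apical kinase module that Cdc42 activates. Crumbs is a transmembrane protein that holds this module at the apical membrane through the adaptor Pals1, the product of Mpp5. In the brain these proteins are best known from the ventricular surface, where radial glia and later the ciliated ependymal cells face the cerebrospinal fluid. The study's title names ependymal polarity and hydrocephalus, the question to which the comparison of the libraries belongs.

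After filtering and removal of predicted doublets, 9286 Mut cells and 10052 WT cells were kept, with a median of 7318 UMIs in Mut and 6224 in WT. A UMI (unique molecular identifier) marks 1 captured RNA molecule. Of the barcodes that passed the filters, 39 occurred in both libraries. Cells were assigned to 21 types by the number of markers detected, of which 14 held at least 50 cells in each library and 19 at least 20. Ependymal-like cells were few (26 Mut and 21 WT), and 871 Mut and 936 WT cells stayed unassigned. The Mut library held 4884 female and 2588 male cells, and the WT library 3485 female and 3926 male cells, called from Xist and Y-linked UMIs. Katnal2 itself stood at 4.99 CPM in Mut and 4.00 CPM in WT over all kept cells, which does not check the labels because the mutated part is unknown.

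Levels are given as CPM, the UMIs of a gene summed over the cells of a type and scaled to 1e+06 UMIs of those cells. Intervals in parentheses are exact 95% intervals for counting error, and differences between animals or preparations lie outside them. A difference between cell types is called where the interval of the ratio leaves out 1 in the same direction in both libraries. Levels are compared between cell types and libraries and not between genes. Barcodes with 10 to 100 UMIs stand for RNA free in the suspension. Pard3, for example, stood at 24.9 CPM in Mut and 23.4 CPM in WT free RNA, and at 1.75 CPM in Mut and 0.388 CPM in WT microglia-like cells.

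The markers that named the ventricular cell types are high in them by the rule, so these values do not check the labels separately. Ependymal-like cells carried a median of 7 in Mut and 6 in WT of the 8 multiciliated markers, which summed to 5894 CPM in Mut and 5296 CPM in WT ependymal-like cells. The same markers summed to 33.9 CPM in Mut and 37.4 CPM in WT radial glia-like cells. Markers of the choroid plexus summed to 121 CPM in Mut and 125 CPM in WT ependymal-like cells. Radial glia-like cells carried a median of 5 of 8 ventricular zone markers in each library, and most of them met their rule narrowly: 179 of 242 Mut cells and 220 of 272 WT cells would leave the type if the rule asked for 1 more marker or a wider lead, and 358 Mut and 307 WT cells lay just outside it.

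The windows of 250 bases before the transcript start are shown for Crb2, Pard3b and Pard6b, which stood high in ventricular cell types and were chosen after their values were seen, and for the pair of aPKC genes, whose levels part between lineages. The sequences are RefSeq's, build GRCm38.p6, and 8 of the 10 genes matched an entry of the promoter table used here. The windows are chr2:37775999-37776248 (plus strand) for Crb2, chr1:61638574-61638823 (plus) for Pard3b, chr2:168080754-168081003 (plus) for Pard6b, chr3:30995521-30995770 (plus) for Prkci, and chr4:155361429-155361678 (minus) for the outermost of the 3 starts of Prkcz. All are written 5′ to 3′ on the gene's strand, and capitals mark the matches to the 8 motifs searched on both strands.
Crb2: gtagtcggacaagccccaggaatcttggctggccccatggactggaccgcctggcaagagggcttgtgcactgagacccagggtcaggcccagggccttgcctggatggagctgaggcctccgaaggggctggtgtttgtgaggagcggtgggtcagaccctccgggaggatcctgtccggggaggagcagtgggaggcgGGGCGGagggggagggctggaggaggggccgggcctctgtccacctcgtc
Pard3b: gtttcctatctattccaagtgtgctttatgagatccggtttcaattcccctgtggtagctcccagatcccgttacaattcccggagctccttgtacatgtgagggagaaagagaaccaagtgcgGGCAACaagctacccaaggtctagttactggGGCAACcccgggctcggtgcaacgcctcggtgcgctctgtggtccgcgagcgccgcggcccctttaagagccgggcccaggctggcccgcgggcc
Pard6b: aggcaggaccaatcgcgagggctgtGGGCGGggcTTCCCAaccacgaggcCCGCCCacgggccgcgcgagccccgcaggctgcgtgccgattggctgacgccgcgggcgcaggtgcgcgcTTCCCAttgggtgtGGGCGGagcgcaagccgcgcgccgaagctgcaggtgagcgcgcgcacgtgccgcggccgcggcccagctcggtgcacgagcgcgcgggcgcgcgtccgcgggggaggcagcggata
Prkci: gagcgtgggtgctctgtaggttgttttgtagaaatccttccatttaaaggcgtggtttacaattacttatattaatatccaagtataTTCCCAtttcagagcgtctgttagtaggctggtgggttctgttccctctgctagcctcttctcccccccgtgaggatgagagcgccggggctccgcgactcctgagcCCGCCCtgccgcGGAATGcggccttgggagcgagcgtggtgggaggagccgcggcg
Prkcz: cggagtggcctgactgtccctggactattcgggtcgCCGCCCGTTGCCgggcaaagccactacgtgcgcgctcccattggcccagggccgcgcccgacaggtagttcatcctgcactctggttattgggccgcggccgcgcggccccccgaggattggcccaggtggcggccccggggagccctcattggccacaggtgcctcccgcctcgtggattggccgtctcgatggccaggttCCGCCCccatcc

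The motifs were forkhead (TGTTTA, found in 12% of the 32851 mouse windows of this length), RFX (GTTGCC, 10.4%), RBPJ (TGGGAA, 21.6%), TEAD (GGAATG, 12.6%), GC box (GGGCGG, 32.7%), E-box (CAGCTG, 13%), NFI (TTGGCA, 12.3%) and SOX (ACAATG, 10.7%). In the Pard3b window the letters of the RFX motif stood at 126 to 121 and at 95 to 90 bases before the start. The outermost Prkcz window held the RFX letters at 208 to 203 bases, next to a GC box at 214 to 209. The Crb2 window held a single match, a GC box at 50 to 45 bases. The Pard6b window held 3 GC boxes and 2 matches to RBPJ and was the richest of those printed in CpG, with 43 CpG sites against a median of 6 over all windows. The Prkci window held the RBPJ, GC box and TEAD letters at 163 to 158, 56 to 51 and 44 to 39 bases. No motif was found in all 5 windows, and a match is a description of the letters and not of binding.

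Crb2, the main Crumbs protein of the brain, stood highest in the ventricular cell types (gene on chromosome 2, 37776249 to 37799103, plus strand, GRCm38). It stood at 79.3 CPM in Mut ependymal-like cells (51.3 to 117, 25 UMIs) and at 31.2 CPM in WT ependymal-like cells (11.4 to 67.9, 6 UMIs). Radial glia-like cells followed with 10.7 CPM in Mut (6.22 to 17.1) and 7.23 CPM in WT (3.74 to 12.6). Intermediate astroglia, the astroglia that met neither the radial glia nor the astrocyte rule, stood at 4.47 CPM in Mut and 4.95 CPM in WT. Crb2 had no UMI in 11 of 19 cell types in Mut and in 8 of 19 in WT. All endothelial-like cells of both libraries were among them, where a count of 0 allows up to 0.782 CPM in Mut and 1.06 CPM in WT.

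Of the 8 members with enough UMIs, Crb2 alone was called higher in ependymal-like than in radial glia-like cells in both libraries, where 13.1% of all genes tested were. The ratio was 7.42 in Mut (3.85 to 14.6) and 4.31 in WT (1.33 to 12.4). Against all astroglia-like cells the ratio was 18.2 in Mut (11.5 to 27.7) and 6.50 in WT (2.36 to 14.4), with a background of 12.6%. Crb2 UMIs were found in 15 of 26 Mut and 5 of 21 WT ependymal-like cells, against 0 of 325 Mut and 1 of 417 WT microglia-like cells. After every cell was thinned to 1000 UMIs, 19.2% of the Mut and 4.76% of the WT ependymal-like cells had a Crb2 UMI. Exons of Crb2 overlap those of Dennd1a on the opposite strand, and the strand setting of the counting is not given in the sources used here, so their reads cannot be told apart with certainty. Dennd1a stood at 41.2 CPM in Mut and 31.2 CPM in WT ependymal-like cells, against 27.2 CPM in Mut and 25.8 CPM in WT over all astroglia-like cells.

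The same Crb2 UMIs can be set out by the number of ciliary markers over all astroglia-like and ependymal-like cells. The last 2 steps hold as many Crb2 UMIs as the ependymal-like type, which these markers define, so this is a description and no separate result. Cells with none of the 8 markers had 4.16 CPM in Mut and 4.36 CPM in WT, and cells with 1 marker had 5.86 CPM in Mut and 8.17 CPM in WT. At 2 to 3 markers the levels were 10.97 CPM in Mut (2.26 to 32.1) and 18.1 CPM in WT (6.63 to 39.4). At 4 to 5 markers they were 57.3 CPM in Mut and 34.0 CPM in WT, from 3 and 2 UMIs. At 6 to 8 markers they were 82.2 CPM in Mut (22 UMIs in 18 cells) and 28.7 CPM in WT (4 UMIs in 11 cells). Crb2 was thus higher at 6 to 8 markers than at none in both libraries, and its Mut and WT intervals overlapped at each step. The last steps held 9 and 18 Mut cells and 11 and 11 WT cells. Median depth differed between the steps, from 4769 to 14005 UMIs per cell in Mut and from 5050 to 12644 in WT.

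**Figure D1:**
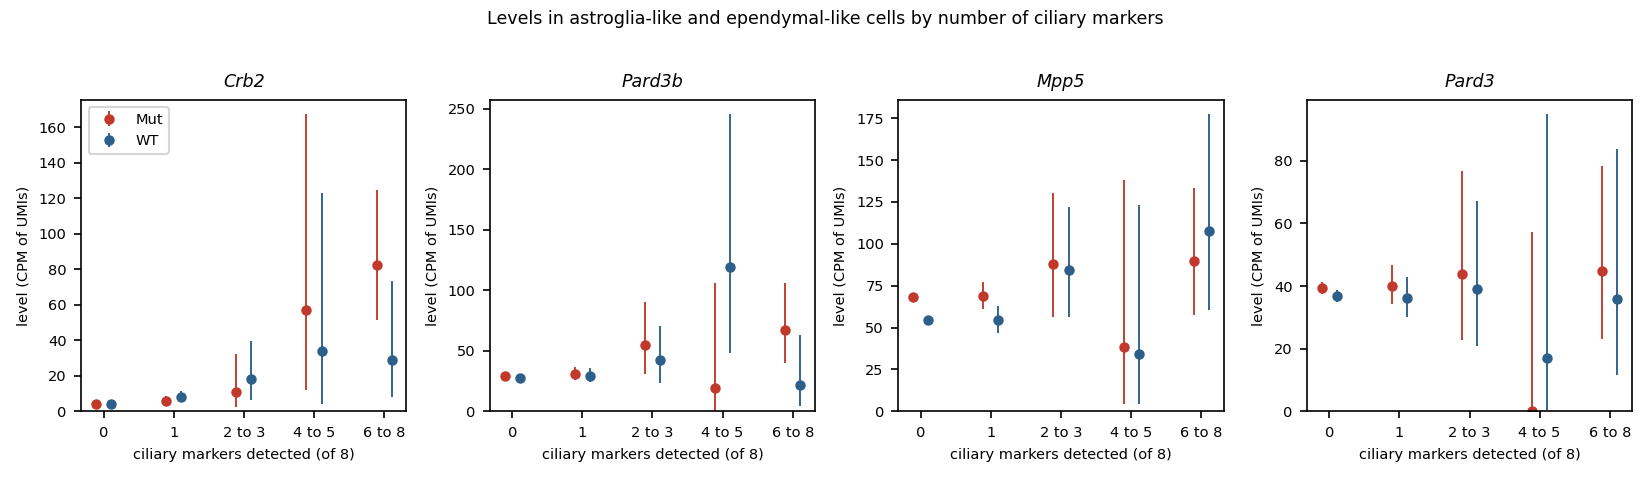
Levels of Crb2, Pard3b, Mpp5 and Pard3 (CPM of summed UMIs, vertical axes from 0) in astroglia-like and ependymal-like cells grouped by how many of 8 ciliary markers were detected (horizontal axes), for Mut (red, left) and WT (blue, right). Bars are exact 95% Poisson intervals, drawn up to 3 counts where no UMI was found. Crb2 stands at 4.16 CPM in Mut and 4.36 CPM in WT cells without a marker and at 82.2 CPM in Mut and 28.7 CPM in WT cells with 6 to 8, and the Pard3 intervals overlap over all steps.

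Crb1, the Crumbs protein known best from the retina, was close to the limit of detection, with 41 UMIs in Mut and 50 in WT over all kept cells (chromosome 1, 139197056 to 139377100, minus strand). In radial glia-like cells it had 4 UMIs in Mut and 6 in WT, a level of 2.51 CPM in Mut and 3.61 CPM in WT. Against intermediate astroglia the ratio was 7.03 in Mut (1.61 to 24.4) and 4.73 in WT (1.54 to 12.3), and it was the only one of the 10 genes called higher there, against 7.42% of all genes. Neuron-like cells had 1.96 CPM in Mut and 1.95 CPM in WT, from 12 and 15 UMIs, which was 3.79 times the astroglial level in Mut (1.72 to 7.94) and 2.49 times in WT (1.252 to 4.73). These came mostly from GABAergic cells: GABAergic neuron-like cells and their dividing neuroblasts held 5 and 6 UMIs in Mut and 9 and 6 in WT. Oligodendroglia-like cells had no Crb1 UMI in either library, a level of at most 0.325 CPM in Mut and 0.313 CPM in WT. The balance of the pair therefore differed between lineages: Crb2 gave 89.4% of the Crb1 and Crb2 UMIs in Mut astroglia (84.5 to 93.2) and 86.0% in WT astroglia (80.8 to 90.2), but 7.69% in Mut neurons (0.195 to 36.0) and 11.8% in WT neurons (1.46 to 36.4).

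Mpp5, which encodes the Crumbs adaptor Pals1, was detected in every one of the 19 cell types of both libraries (chromosome 12, 78748907 to 78840714, plus strand). Its highest levels were 104 CPM in Mut oligodendrocyte-like cells (79.4 to 134) and 88.4 CPM in WT ependymal-like cells (51.5 to 141). The other of these types stood at 79.3 CPM in Mut ependymal-like cells (51.3 to 117) and 76.4 CPM in WT oligodendrocyte-like cells (54.6 to 104), so the order of the 2 types does not hold beyond the counting error. Within the oligodendrocyte lineage Mpp5 was higher in oligodendrocyte-like cells than in precursors (OPC-like cells), by a ratio of 3.03 in Mut (2.23 to 4.08) and 2.46 in WT (1.70 to 3.47). Of the members with enough UMIs, Mpp5 alone was called higher in that contrast, against 8.93% of all genes. A further 2 were called lower and 3 were not called. Astroglia stood at 68.2 CPM in Mut and 54.9 CPM in WT, and neuron-like cells at 17.6 CPM in Mut and 10.0 CPM in WT, a ratio of neurons to astroglia of 0.259 in Mut (0.211 to 0.313) and 0.182 in WT (0.143 to 0.229).

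Among blood and vessel cells, Mpp5 was higher in border-associated macrophages (BAM-like cells, which line the meninges and vessels) than in microglia-like cells. BAM-like cells had 52.0 CPM in Mut and 41.1 CPM in WT, and microglia-like cells 24.9 CPM in Mut and 23.7 CPM in WT, with ratios of 2.09 in Mut (1.45 to 3.01) and 1.74 in WT (1.005 to 2.89), where 10.3% of all genes were called higher. Endothelial-like cells had 50.6 CPM in Mut and 37.0 CPM in WT, and mural-like cells, which wrap the vessels, 17.0 CPM in Mut and 14.2 CPM in WT. The ratio of mural to endothelial was 0.336 in Mut (0.203 to 0.528) and 0.383 in WT (0.211 to 0.651), against 18.1% of all genes called lower.

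**Figure D2:**
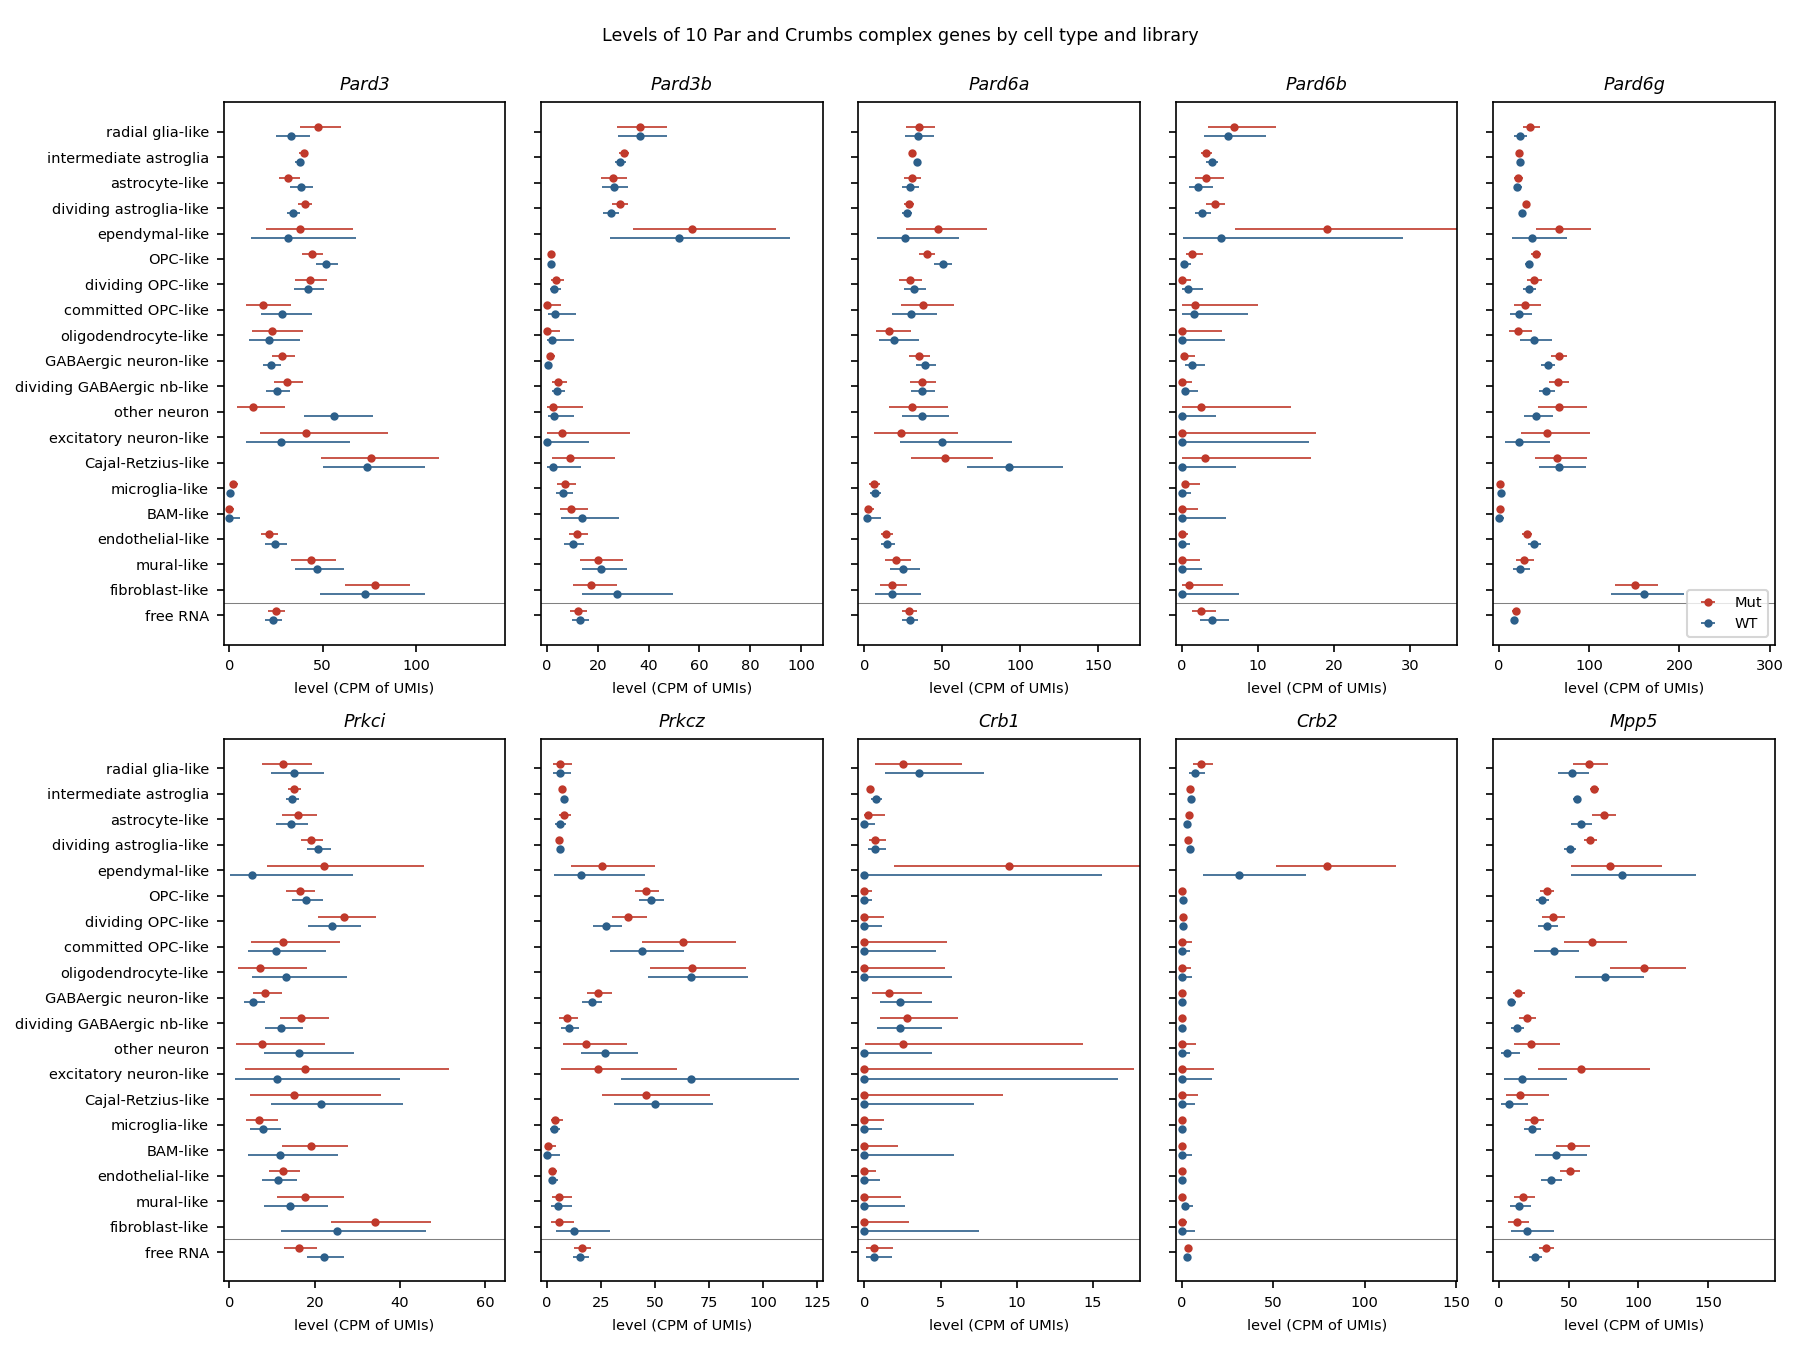
Level of each of the 10 genes (CPM of summed UMIs, horizontal axes, a scale of its own for each gene) in 19 cell types and in free RNA (rows), for Mut (red, upper point) and WT (blue, lower point). Bars are exact 95% Poisson intervals, drawn up to 3 counts where no UMI was found, and bars beyond a panel's edge are clipped. Crb2 and Pard3b stand highest in ependymal-like cells, Prkcz in oligodendrocyte-like cells, and Pard6g in fibroblast-like cells, with 151 CPM in Mut and 161 CPM in WT.

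Pard3 encodes the junctional scaffold Par3 (chromosome 8, 127063893 to 127612286, plus strand). It stood highest in fibroblast-like cells, with 77.9 CPM in Mut (61.8 to 96.9) and 72.9 CPM in WT (48.8 to 105), and in Cajal-Retzius-like cells, the earliest cortical neurons, with 76.1 CPM in Mut (49.2 to 112) and 74.0 CPM in WT (50.3 to 105). The order of these types does not hold beyond the counting error. Astroglia stood at 39.5 CPM in Mut and 36.7 CPM in WT, oligodendroglia at 41.1 CPM in Mut and 46.0 CPM in WT, and neurons at 31.2 CPM in Mut and 29.4 CPM in WT. Cajal-Retzius-like cells exceeded GABAergic neuron-like cells 2.68 times in Mut (1.65 to 4.22) and 3.29 times in WT (2.11 to 5.01), where 18.3% of all genes were called higher. Macrophages had almost no Pard3: BAM-like cells had no UMI in either library, and microglia-like cells had 4 UMIs in 325 Mut cells and 1 UMI in 417 WT cells. Along the oligodendrocyte lineage Pard3 was lower in oligodendrocyte-like cells, with 23.0 CPM in Mut and 21.0 CPM in WT, than in OPC-like cells, with 44.2 CPM in Mut and 51.9 CPM in WT. The ratio was 0.519 in Mut (0.273 to 0.904) and 0.405 in WT (0.200 to 0.735). Pard3 and Pard6a were the genes called lower in that contrast, against 18.5% of all genes. Of the other members with enough UMIs, Mpp5 was called higher and 3 were not called.

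Pard3b encodes a second Par3 protein, Par3L, and had a different distribution from Pard3 (chromosome 1, 61638824 to 62642284, plus strand, whose window above holds 2 RFX matches). It stood highest in ependymal-like cells, with 57.1 CPM in Mut (33.8 to 90.2) and 52.0 CPM in WT (24.9 to 95.6), where 10.4% of 12922 genes had their highest level in both libraries. Radial glia-like cells followed with 36.4 CPM in Mut (27.7 to 47.1) and 36.8 CPM in WT (28.1 to 47.2), an interval that overlaps the ependymal one. Over all astroglia the level was 29.7 CPM in Mut and 28.0 CPM in WT. In oligodendroglia it was 1.84 CPM in Mut and 1.98 CPM in WT, a ratio to astroglia of 0.0620 in Mut (0.0360 to 0.0997) and 0.0706 in WT (0.0424 to 0.111). In neurons it was 2.94 CPM in Mut and 1.95 CPM in WT, a ratio of 0.0990 in Mut (0.0585 to 0.157) and 0.0695 in WT (0.0388 to 0.115). Exons of its antisense gene Pard3bos1 overlap it, and that gene stood at 1.28 CPM in Mut and 0.661 CPM in WT astroglia.

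The share of Pard3b among the UMIs of Pard3 and Pard3b showed the same division. It was 42.9% in Mut astroglia (41.2 to 44.7) and 43.3% in WT astroglia (41.4 to 45.2), against 4.29% in Mut oligodendroglia (2.52 to 6.78) and 4.13% in WT oligodendroglia (2.50 to 6.38). Microglia-like cells, at a low total of 20 UMIs in Mut and 17 in WT, had 80.0% in Mut (56.3 to 94.3) and 94.1% in WT (71.3 to 99.9). In BAM-like cells all 13 UMIs in Mut and all 7 in WT were from Pard3b. Free RNA, which holds both genes, had 32.9% in Mut and 35.8% in WT, and its part in the microglial UMIs was not tested.

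Pard6a encodes the most widely spread Par6 in these cells (chromosome 8, 105701148 to 105703496, plus strand). It stood highest in Cajal-Retzius-like cells, with 51.7 CPM in Mut (30.1 to 82.8) and 93.1 CPM in WT (66.2 to 127). OPC-like cells had 40.1 CPM in Mut and 50.4 CPM in WT. Dividing OPC-like cells were lower at 29.1 CPM in Mut and 31.8 CPM in WT, with ratios of 0.726 in Mut (0.545 to 0.955) and 0.630 in WT (0.488 to 0.807). Of the members with enough UMIs, Pard6a alone was called lower in dividing OPCs and 6 were not called, against 12.4% of all genes called lower. Oligodendrocyte-like cells had 15.9 CPM in Mut and 19.1 CPM in WT. BAM-like cells had 3 UMIs in Mut and 1 in WT.

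Pard6b was near the limit of detection outside astroglia (chromosome 2, 168081004 to 168101203, plus strand). Astroglia stood at 3.62 CPM in Mut (161 UMIs) and 3.53 CPM in WT (144 UMIs), close to free RNA at 2.58 CPM in Mut and 4.01 CPM in WT. Ependymal-like cells had 19.0 CPM in Mut and 5.20 CPM in WT, from 6 UMIs and 1 UMI, and radial glia-like cells 6.91 CPM in Mut and 6.02 CPM in WT. Endothelial-like and mural-like cells had no Pard6b UMI in either library. Neurons had 3 UMIs in Mut and 6 in WT, a ratio to astroglia of 0.135 in Mut (0.0276 to 0.403) and 0.221 in WT (0.0798 to 0.493).

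Pard6g stood highest in fibroblast-like cells and was higher in neurons than in astroglia (chromosome 18, 80046890 to 80119639, plus strand). Mural-like cells, at 27.5 CPM in Mut and 23.0 CPM in WT, were not called different from astroglia. Fibroblast-like cells, the cells of the meninges and vessel walls, stood at 151 CPM in Mut (128 to 177, 155 UMIs) and 161 CPM in WT (124 to 205, 64 UMIs). Their intervals lay above those of every other cell type in both libraries. The ratio to mural-like cells was 5.49 in Mut (3.77 to 8.20) and 6.98 in WT (4.36 to 11.5), where 13% of all genes were called higher. The ratio to astroglia was 6.22 in Mut (5.22 to 7.37) and 6.94 in WT (5.30 to 8.94), and Pard3 and Pard6g were the genes called higher there, against 13.2% of all genes. Neurons had 65.5 CPM in Mut and 52.4 CPM in WT, against 24.3 CPM in Mut and 23.2 CPM in WT astroglia. Pard6g gave 89.1% of the Par6 UMIs in Mut fibroblast-like cells (83.5 to 93.3) and 90.1% in WT (80.7 to 95.9), compared with 41.8% in Mut astroglia (39.9 to 43.7) and 39.6% in WT astroglia (37.6 to 41.6). Endothelial-like cells exceeded astroglia in Pard6g alone, 1.26 times in Mut (1.03 to 1.52) and 1.67 times in WT (1.36 to 2.04), while 7 members were called lower there, against 23.1% of all genes called higher and 34.3% lower. Microglia-like cells had 3 Pard6g UMIs in Mut and 6 in WT, and 8 members were called lower there than in astroglia, against 36.5% of all genes.

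The aPKC genes parted by lineage. Prkci, aPKC iota, the form that embryos need for epithelial polarity, was detected in all 19 cell types (chromosome 3, 30995747 to 31052959, plus strand). It stood at 16.1 CPM in Mut and 16.2 CPM in WT astroglia, at 18.3 CPM in Mut and 19.0 CPM in WT oligodendroglia, and at 11.9 CPM in Mut and 9.61 CPM in WT neurons. Its highest level was in fibroblast-like cells, with 34.1 CPM in Mut (23.7 to 47.4) and 25.1 CPM in WT (12.1 to 46.2). Dividing OPC-like cells followed with 26.9 CPM in Mut and 24.1 CPM in WT, within these intervals, so the order does not hold beyond the counting error. WT ependymal-like cells were lowest in WT at 5.20 CPM, from 1 UMI. Prkci was the only one of the 10 genes called higher in dividing than in intermediate astroglia, by 1.27 times in Mut (1.07 to 1.499) and 1.42 times in WT (1.19 to 1.68), against 20.5% of all genes.

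Prkcz, aPKC zeta, which the brain also makes as a short form without the regulatory part, stood higher in oligodendroglia and neurons than in astroglia (chromosome 4, 155260129 to 155361361, minus strand). It stood highest in oligodendrocyte-like cells in Mut, with 67.1 CPM (47.5 to 92.2), and also in WT, with 66.8 CPM (46.6 to 93.0), where the 25 excitatory neuron-like cells stood at 66.6 CPM. OPC-like cells had 46.0 CPM in Mut and 48.3 CPM in WT, and astroglia 6.72 CPM in Mut and 7.25 CPM in WT. Ependymal-like cells had 25.4 CPM in Mut and 15.6 CPM in WT, from 8 and 3 UMIs. The ratio of oligodendroglia to astroglia was 6.87 in Mut (5.91 to 7.99) and 5.98 in WT (5.14 to 6.97). In that contrast Pard6a, Pard6g and Prkcz were called higher and Pard3b, Pard6b, Crb1, Crb2 and Mpp5 lower, where 46.6% of all genes were called higher and 19.3% lower. Neurons exceeded astroglia in Prkcz 2.92 times in Mut (2.34 to 3.62) and 2.81 times in WT (2.30 to 3.43). There, 4 of the 10 genes were called higher and 6 lower, against 38.8% and 28.6% of all genes. The 3 starts that RefSeq gives for Prkcz lie within 1 gene, and the counts do not separate the forms.

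Among neurons the aPKC genes differed in opposite directions between dividing and postmitotic GABAergic cells. Prkcz stood at 23.8 CPM in Mut and 20.7 CPM in WT GABAergic neuron-like cells, and at 9.39 CPM in Mut and 10.2 CPM in WT dividing GABAergic neuroblast-like cells, a ratio of 2.54 in Mut (1.53 to 4.39) and 2.03 in WT (1.29 to 3.29). Prkci stood at 8.38 CPM in Mut and 5.43 CPM in WT GABAergic neuron-like cells, and at 16.9 CPM in Mut and 12.1 CPM in WT dividing neuroblasts, a ratio of 0.496 in Mut (0.287 to 0.844) and 0.447 in WT (0.244 to 0.803). The other 4 members with enough UMIs were not called, and the rest had too few UMIs. Of all genes, 15.2% were called higher and 13.7% lower. The share of Prkcz among the UMIs of both was 74.0% in Mut (64.3 to 82.3) and 79.2% in WT (70.0 to 86.6) GABAergic neuron-like cells. It was 35.7% in Mut (23.4 to 49.6) and 45.6% in WT (32.4 to 59.3) dividing neuroblasts. OPCs had the same order, with 58.3% in Mut and 53.3% in WT dividing cells and 73.6% in Mut and 72.8% in WT OPC-like cells.

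**Figure D3:**
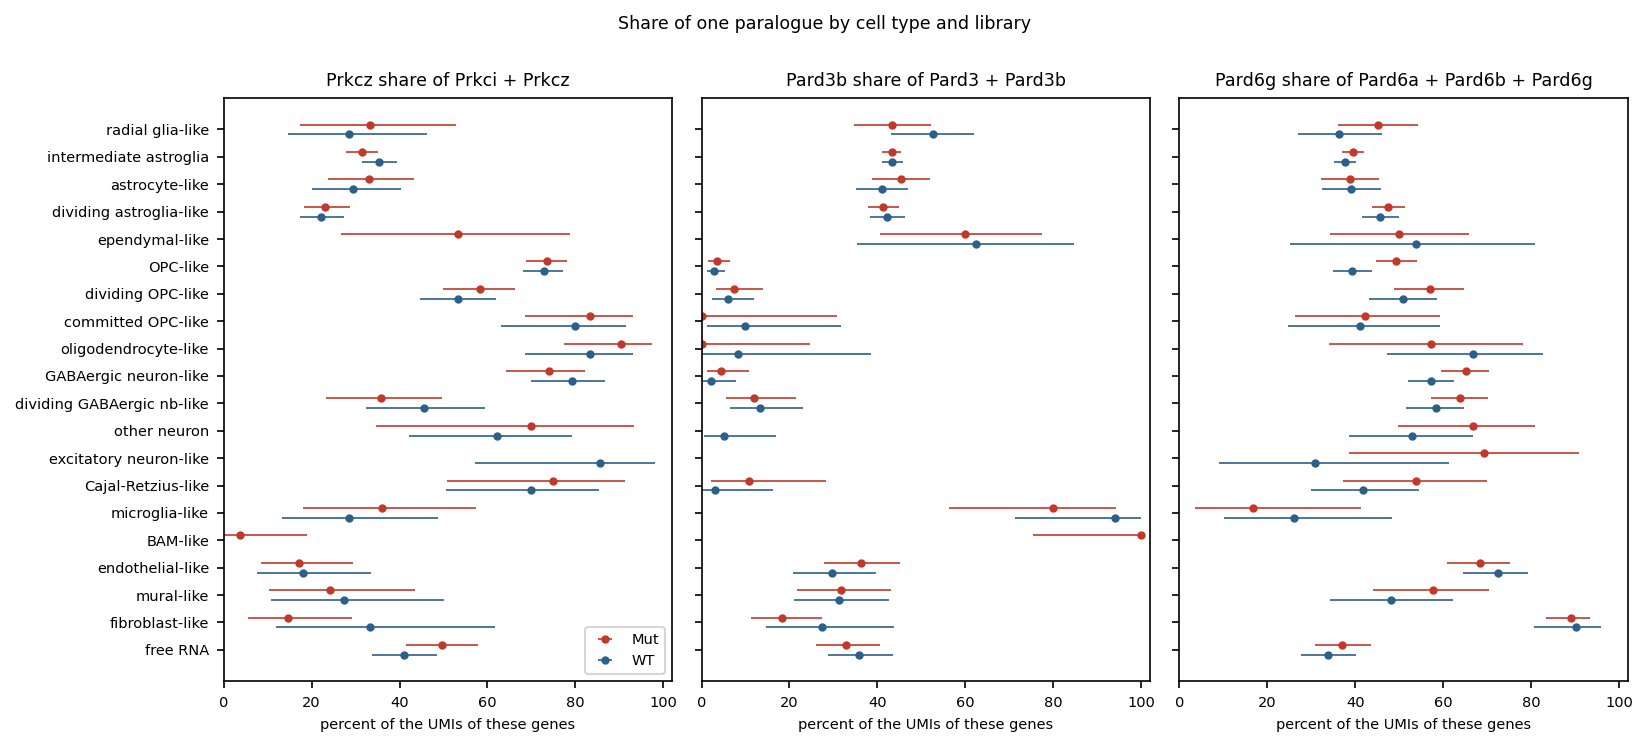
Share of Prkcz among the UMIs of Prkci and Prkcz, of Pard3b among those of Pard3 and Pard3b, and of Pard6g among those of the 3 Par6 genes (percent, horizontal axes) in 19 cell types and free RNA (rows), for Mut (red, upper point) and WT (blue, lower point). Bars are exact 95% Clopper-Pearson intervals, and points with fewer than 10 UMIs are left out. The Prkcz share is 71.6% in Mut and 69.6% in WT oligodendroglia, whereas astroglia have 29.4% in Mut and 30.9% in WT.

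The members' patterns were set beside those of all genes over 38 points, 19 cell types in each of the 2 libraries, among 12922 genes of at least 20 CPM in some cell type, as Pearson's r of log2(CPM + 5). The points share 2 libraries and differ in depth, so r is a description. The genes most like Prkcz were Dusp26 (r = 0.951), Evi5l (0.928) and Rundc3b (0.913). Those most like Pard3b were Pbxip1 (0.912), Lamb2 (0.905) and Slc9a3r1 (0.896), the last encoding a scaffold that binds ezrin. Crb2 was most like Gm19935 (0.973), Gm973 (0.971) and Gm29508 (0.968), and Crb2 was itself the second gene for Pard6b (0.880). Pard6b, at most 19.0 CPM and with no UMI in 7 Mut and 9 WT cell types, lay under the 20 CPM limit. Crb1, at most 9.52 CPM, did too, so the r of both rests on few UMIs. Pard3 was most like Lysmd2 (0.895), Pard6a like Praf2 (0.892), Pard6g like Mfap2 (0.866), Mpp5 like Csgalnact1 (0.791), Crb1 like Tfap2c (0.743) and Prkci like Mpp6 (0.689).

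Between the libraries, most values of the 10 genes lay close together. Over the 14 cell types with at least 50 cells there were 140 pairs of gene and cell type, of which 80 had at least 30 UMIs. Among these 80, 3 pairs differed by at least 1.5-fold after adding 5 CPM, where 3.5% of all gene and cell type pairs did. The interval of the Mut to WT ratio lay above 1 in 9 pairs and below 1 in 3, where 10.5% and 5.05% of all pairs did. The counts were therefore near the background, and 4 of the 9 pairs belonged to Mpp5. The 3 pairs past the fold were Pard3 and Pard6g in other neurons and Mpp5 in committed OPC-like cells, in cell types of few cells where 14.9% and 11.7% of all genes passed it. Pard3 in other neurons, those without GABAergic, excitatory or Cajal-Retzius markers enough for a name, had 5 UMIs in 80 Mut cells and 38 UMIs in 182 WT cells, a ratio of 0.228 (0.0702 to 0.581). The ratio was 0.735 (0.376 to 1.36) under the stricter marker rule, and its interval lay below 1 in 7 of 10 settings; it included 1 also after thinning to 1000 UMIs and in male cells. Excitatory markers summed to 422 CPM in Mut and 169 CPM in WT other neurons, and neuronal lineage markers to 4186 CPM in Mut and 5433 CPM in WT; their part in the result was not tested.

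Mpp5 was higher in the Mut library in every one of the 13 cell types tested, with ratios of 1.05 to 1.70. Among all genes with at least 30 UMIs, 53.0% (endothelial-like) to 66.6% (microglia-like) had a ratio above 1 in a cell type. The 13 types come from the same 2 libraries and are not separate observations. Over all kept cells Mpp5 stood at 54.3 CPM in Mut (4146 UMIs) and 42.4 CPM in WT (3067 UMIs), a ratio of 1.28 (1.22 to 1.34). Of all genes, 30.7% had an interval above 1 in this comparison, but only 0.614% passed the 1.5-fold limit, which Mpp5 did not. In astroglia it stood at 68.2 CPM in Mut and 54.9 CPM in WT, a ratio of 1.24 (1.18 to 1.31), where 23.3% of all genes had an interval above 1. In oligodendroglia the ratio was 1.19 (1.02 to 1.38), against 13.2%, and it was 1.13 to 1.27 over the alternative settings. In endothelial-like cells it was 1.37 (1.07 to 1.75), against 8%, but 3.12 (1.02 to 12.7) after thinning to 1000 UMIs. The endothelial interval included 1 in female cells, at 1.43 (0.943 to 2.22), and in male cells, at 1.28 (0.879 to 1.87). In neurons it was 1.76 (1.30 to 2.39), past the 1.5-fold limit that 0.688% of all genes passed. Ependymal-like cells, too few for this count, had 79.3 CPM in Mut and 88.4 CPM in WT, a ratio of 0.898 (0.466 to 1.77).

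The Mpp5 ratio was nearly the same within the sexes, with 1.28 (1.19 to 1.38) for female and 1.27 (1.18 to 1.37) for male cells over all kept cells. In astroglia it was 1.23 in female and 1.29 in male cells. Free RNA differed in the same direction, with 33.6 CPM in Mut and 25.5 CPM in WT. In neurons the female ratio was 2.39 (1.39 to 4.27) and the male ratio 1.39 (0.859 to 2.23). GABAergic neuron-like cells had 13.5 CPM in Mut and 8.79 CPM in WT, a ratio of 1.54 (0.957 to 2.50).

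Pard6a differed in the other direction. Over all kept cells it stood at 29.2 CPM in Mut and 32.6 CPM in WT, a ratio of 0.895 (0.844 to 0.948), where 12.9% of all genes had an interval below 1. In OPC-like cells the levels were 40.1 CPM in Mut (231 UMIs) and 50.4 CPM in WT (293 UMIs), a ratio of 0.796 (0.667 to 0.949), against 5.14% of all genes. In intermediate astroglia they were 30.4 CPM in Mut and 34.0 CPM in WT, a ratio of 0.895 (0.812 to 0.985), against 9.09%. The OPC-like ratio became 1.09 when every cell was thinned to 1000 UMIs, with an interval of 0.703 to 1.69.

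Pard6g, the paralogue of Pard6a, was higher in Mut neurons, with 65.5 CPM in Mut and 52.4 CPM in WT and a ratio of 1.251 (1.09 to 1.44), where 15.7% of all genes had an interval above 1. In OPC-like cells it stood at 40.4 CPM in Mut and 32.8 CPM in WT, a ratio of 1.23 (1.01 to 1.499), against 10.1%. The OPC-like interval lay above 1 in 6 of 10 settings, and the ratio was 1.01 (0.637 to 1.61) after thinning to 1000 UMIs. The Pard6g share of Par6 UMIs in OPC-like cells was 49.4% in Mut (44.8 to 54.0) and 39.3% in WT (34.9 to 43.8). In neurons it was 64.2% in Mut (60.3 to 67.9) and 55.4% in WT (51.7 to 59.0). The Mut and WT intervals of the share did not overlap in OPC-like cells or in all neurons. They overlapped in GABAergic neuron-like cells, at 65.1% in Mut (59.5 to 70.3) and 57.3% in WT (52.0 to 62.4). They also overlapped in dividing OPC-like cells and in all astroglia, but not in all oligodendroglia. No share over all genes is given beside these. With 1 library per genotype the genotype and the library cannot be told apart.

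The aPKC genes had intervals that included 1 in all astroglia, oligodendroglia and neurons. Prkci had ratios of 0.994 in astroglia (0.894 to 1.11), 0.966 in oligodendroglia (0.779 to 1.20) and 1.24 in neurons (0.885 to 1.74). Prkcz had 0.928 in astroglia (0.787 to 1.09), 1.07 in oligodendroglia (0.928 to 1.22) and 0.961 in neurons (0.752 to 1.23). Pard3b in astroglia had 1.06 (0.979 to 1.15), Pard6b 1.03 (0.815 to 1.29) and Crb2 0.909 (0.741 to 1.11). Pard3 in astroglia stood at 39.5 CPM in Mut and 36.7 CPM in WT, a ratio of 1.08 (1.004 to 1.15) that became 0.946 after thinning.

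In the ventricular cell types the counts were small. Crb2 in ependymal-like cells, 25 UMIs in Mut and 6 in WT, gave a ratio of 2.54 (1.02 to 7.58). The pair only just met the limit of 30 UMIs over both libraries, and most of its UMIs were from Mut. Of 3516 genes in these cells, 5.83% had an interval above 1 and 17.3% passed the 1.5-fold limit either way. The Crb2 ratio was 1.01 in female cells, from only 12 Mut and 3 WT cells. In male cells it was 10.6 (1.47 to 463), from 9 Mut and 13 WT cells. The Mut ependymal-like cells carried a median of 7 ciliary markers and the WT ones 6, and markers of dividing cells summed to 1098 CPM in Mut and 707 CPM in WT; their part in the result was not tested. In radial glia-like cells Crb2 stood at 10.7 CPM in Mut and 7.23 CPM in WT, with a ratio of 1.48 (0.665 to 3.39). Pard3 there stood at 47.8 CPM in Mut (76 UMIs) and 33.1 CPM in WT (55 UMIs), a ratio of 1.44 (1.01 to 2.08), against 7.03% of all genes, and the stricter marker rule gave 0.995.

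**Figure D4:**
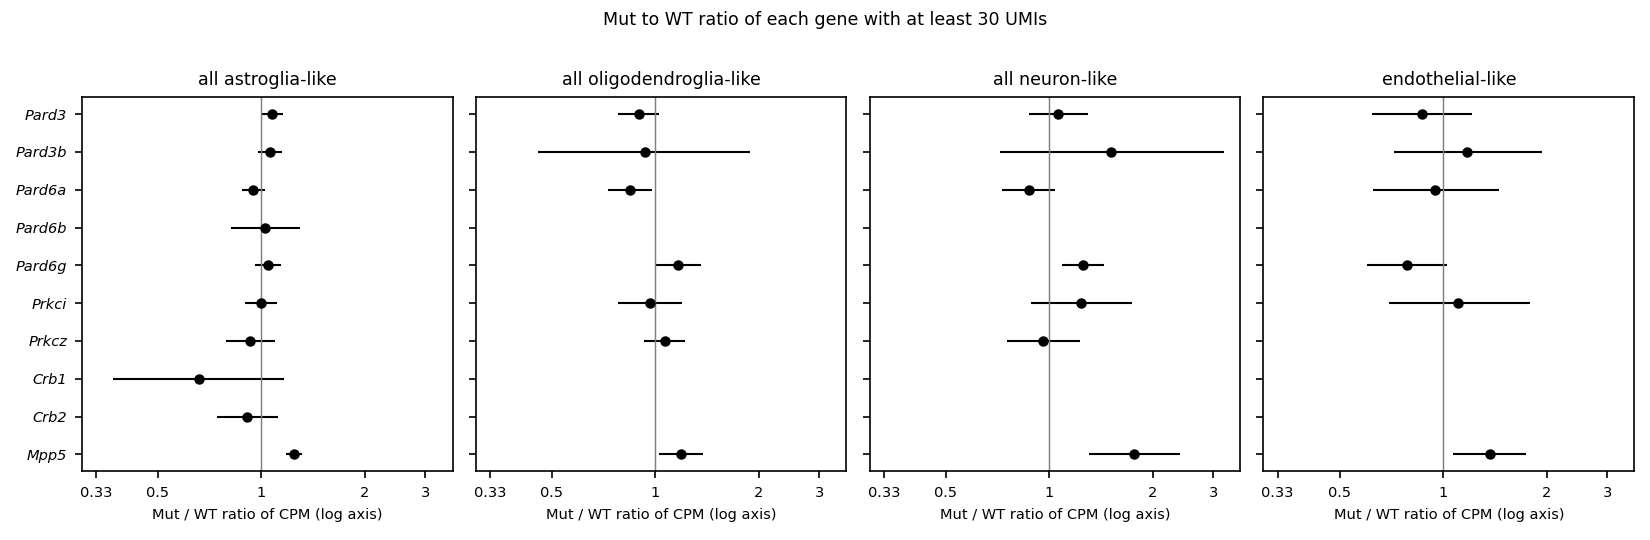
Ratio of the Mut to the WT level (log axis) of each of the 10 genes with at least 30 UMIs, in all astroglia-like, all oligodendroglia-like, all neuron-like and endothelial-like cells. Bars are exact 95% intervals for counting error, and the grey line marks equal levels. Mpp5 lies to the right of the line in all 4 panels, with 1.24, 1.19, 1.76 and 1.37, and most other bars cross it.

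The other genes of the apical and basolateral modules were counted in a list of 49: 10 Crumbs complex partners, 16 Par partners and inputs, 11 genes of the Scribble module, 9 Par-1 and Par-4 kinases and 3 ERM proteins, which link membrane to actin. In radial glia-like cells 37 of them had at least 30 UMIs, 0 passed the 1.5-fold limit (4.17% of all genes did) and 3 had an interval above 1, namely Mark1, Wwc1 and Rdx, and 0 below it (7.03% and 3.73% of all genes). Their median log2 ratio was 0.10, and that of all genes was 0.05. The highest values were those of Mark1, a Par-1 kinase, with 48.4 CPM in Mut and 33.7 CPM in WT, Mpdz, a multi-PDZ scaffold, with 52.8 CPM in Mut and 38.0 CPM in WT, and Wwc1 (Kibra), with 86.1 CPM in Mut and 63.9 CPM in WT. Among the lowest were Amotl2 with 10.1 CPM in Mut and 13.3 CPM in WT, and Numbl with 14.5 CPM in Mut and 18.1 CPM in WT.

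Over all kept cells 48 of the 49 were tested, 17 had an interval above 1 and 3 below (30.7% and 12.9% of all genes), and the median log2 ratio was 0.03, the same as that of all genes at 2 decimals. The highest by the log2 ratio were Yap1, the effector of Hippo signalling, with a ratio of 1.31 (1.21 to 1.41), Amotl2 with 1.29 (1.20 to 1.38) and Sqstm1 with 1.24 (1.19 to 1.29). The lowest by the log2 ratio after adding 5 CPM were Scrib with a plain ratio of 0.923 (0.862 to 0.988), Lin7a with 0.889 (0.778 to 1.02) and Dlg3 with 0.911 (0.818 to 1.01). Lin7b, at 0.681 CPM in Mut and 0.886 CPM in WT, had a lower plain ratio of 0.769 (0.523 to 1.13). Amotl2 was thus among the highest over all cells and among the lowest in radial glia-like cells, where its interval was 0.372 to 1.51. In astroglia 15 of 47 had an interval above 1 and 5 below, against 23.3% and 9.95% of all genes. Mpp5, at 1.28 over all kept cells, lay near the upper end of these partner ratios.

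Across cell types, the partners also separated ependymal-like from radial glia-like cells. Of 39 tested, 12 were called higher in ependymal-like cells in both libraries and 2 lower, against 13.1% and 7.31% of all genes. The higher ones were Mpdz, Amotl2, Tiam1, Jam3, Wwc1, Frmd6, Scrib, Lrrc1, Stk11, Cab39l, Ezr and Msn, which include the ERM proteins ezrin (Ezr) and moesin (Msn), and the lower ones were Cdc42 and Jam2. Stk11 is the Par-4 kinase, and Cab39l encodes a subunit of its complex. Of the core genes with enough UMIs, Crb2 alone was called in that direction and 7 were not called.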

How the data were processed

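The authors deposited raw UMI counts per gene and barcode for 1 Mut and 1 WT library, written by Cell Ranger 4 per the file headers. Cell Ranger, STAR and GRCm38 are named per the submitters' processing notes. Not given in the sources used here are the annotation release, the chemistry and the strand setting of the counting.

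The libraries held 97891513 UMIs in Mut and 93664707 UMIs in WT. Barcodes were kept from 1000 UMIs and 500 genes upward where mitochondrial UMIs made up no more than 20%, which left 10102 in Mut and 11024 in WT. The highest scores of Scrublet (scanpy 1.11.5) were removed at 0.8% per 1000 barcodes, 816 barcodes in Mut and 972 in WT, where its automatic threshold would have removed 382 in Mut and 357 in WT. Cells were named from lists of markers that hold none of the 10 genes: a share of at least 0.5 of a list had to be detected (5 markers for committed OPC-like and choroid plexus-like cells), with a lead of 0.25 over the next list of another lineage. No lead was asked between the astroglial, ependymal and choroid plexus lists. A cell that met the astroglial and the ependymal rule, and not the choroid plexus rule, was named ependymal-like. The limits of this rule were settled after marker counts had been seen. Radial glia-like, astrocyte-like and dividing cells were separated within astroglia by further lists, and the rest were called intermediate astroglia. UMIs were summed per library and type with Python 3.11.15, numpy 2.4.6, scipy 1.17.1 and pandas 2.3.3.

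Levels carry exact Poisson intervals, shares Clopper-Pearson intervals and ratios exact conditional binomial intervals, all at 95% and for counting error only. A count of 0 allows up to 3 counts. Ratios were read for genes with at least 30 UMIs, and log2 ratios were taken after adding 5 CPM. With 1 library per genotype no test was run. The calculation was tested on simulated data. Text names all 10 genes, the 3 highest and 3 lowest partners in radial glia-like and in all kept cells, and the genes most correlated with each member; the other partners are named where a count of them is given. The values of 1 partner that this rule names are not reported here. Sex was called from Xist and Y-linked UMIs.

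The alternatives were at least 2000 UMIs, at most 10% mitochondrial UMIs, no doublet removal, a stricter marker rule, thinning to 1000 UMIs, mitochondrial UMIs left out, TMM scaling (edgeR 4.0.16), female or male cells alone, at least 10 UMIs per gene, no filter on low counts, 1 CPM added and another fold limit. The members and lists were chosen with earlier results of these data known. Gene positions are those of GENCODE for GRCm38, and promoter sequences are RefSeq's for GRCm38.p6.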

Additional observations from a re-analysis of the deposited data

Results flagged for a closer look

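Pard3 differed between the libraries in opposite directions in different cell types. Its Mut to WT ratio was 1.44 in radial glia-like cells and 1.18 in dividing astroglia-like cells, whereas it was 0.228 in other neurons, from 5 UMIs in Mut and 38 UMIs in WT. The difference between the cell types was not tested. The directions depended on the setting: the ratio ranged from 0.930 to 1.58 in radial glia-like cells, with an interval above 1 in 2 of 10 settings, and from 0.776 to 1.42 in dividing astroglia-like cells, with 6 of 10. In other neurons it ranged from 0.164 to 0.735, with an interval below 1 in 7 of 10.

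Pard3b in radial glia-like cells differed in opposite directions in the sexes. In female cells it stood at 27.8 CPM in Mut and 48.6 CPM in WT, a ratio of 0.571 (0.3301 to 0.984). In male cells it stood at 60.4 CPM in Mut and 29.1 CPM in WT, a ratio of 2.08 (1.07 to 4.06). These values rest on 155 Mut and 107 WT female cells and on 57 Mut and 99 WT male cells. No share over all genes is given beside them. The difference between the sexes was not tested, and all radial glia-like cells together had 36.4 CPM in Mut and 36.8 CPM in WT.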

How the results depend on the processing

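Each genotype is 1 library, so no replicate could be left out. No paired analysis was possible because each genotype has 1 library and the labels carry no replicate numbers. Of the 23 called Mut to WT ratios, 144 values under the alternatives kept direction and side of 1, 57 kept direction but no longer excluded 1, and 6 reversed. Mpp5 stayed above 1 with an interval that excluded it in 10 of 10 settings over all kept cells (1.24 to 1.43) and in astroglia (1.21 to 1.42), in 8 of 10 in neurons (1.39 to 2.39), in 8 of 10 in endothelial-like cells (1.28 to 3.12) and in 6 of 10 in oligodendroglia. The interval of Crb2 in ependymal-like cells excluded 1 in 8 of 10 settings, with ratios of 1.01 to 10.6. That pair only just met the limit of 30 UMIs in the main setting. Pard3 in radial glia-like cells reversed to 0.995 under the stricter marker rule and to 0.930 in male cells. Thinning to 1000 UMIs reversed Pard3 in dividing astroglia-like cells to 0.776 and in all astroglia to 0.946, and Pard6a in OPC-like cells to 1.09 and in all oligodendroglia to 1.07. The cause was not tested.

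The counts that follow carry neither the number tested nor the share over all genes in each setting. They are therefore no result about the members or partners. The 3 pairs past the fold became 8 in female cells, 1 in male cells, 5 with at least 10 UMIs, 8 with no filter on low counts and 16 at a lower fold limit. The 9 pairs with an interval above 1 became 2 after thinning, 4 with TMM scaling and 4 in female cells, and the 3 pairs below 1 became 0 under the stricter marker rule and 0 after thinning. The partners past the fold in radial glia-like cells, 0 in the main setting, became 2 under the stricter rule, 1 after thinning, 1 in female cells, 5 in male cells, 1 with no filter and 5 at a lower fold limit, and the 3 with an interval that left out 1 became 0 under the stricter rule and 0 after thinning. In all astroglia the 20 such partners became 6 after thinning, 12 in female cells and 11 in male cells. The cause was not tested. Depth limits Crb1, Pard6b and every value in ependymal-like cells, which rest on few UMIs.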
